A study of Mus musculus with 2 samples.

Results

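The SLAM (signalling lymphocytic activation molecule) family was examined as 9 receptor genes, Slamf1, Cd48, Cd244, Ly9, Cd84, Slamf6, Slamf7, Slamf8 and Slamf9, and the adaptor gene Sh2d1a, matched by symbol among the 23210 genes of the deposited expression tables. All 10 genes were found. The tables held 2 RNA-seq libraries from mouse bone marrow, sorted for LSK cells (Kit-positive and Sca-1-positive cells that lack lineage markers). The sorted cells were also CD150-positive and Flt3-negative, and the labels call them hematopoietic stem cells (HSCs). The SATB1-positive library came from the Satb1-Tomato-positive fraction and the SATB1-negative library from the Satb1-Tomato-negative fraction, the Tomato fluorescence reporting expression of SATB1, a chromatin organizer of lymphoid cells. The labels give 1 library per group and do not give the strain, the age or the number of mice pooled, nor whether the reporter disrupts an allele of Satb1. Since neither group has a second library, no difference below has a replicate check, and no p-value was computed.

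SLAM receptors are immunoglobulin superfamily proteins of blood cells, and most of them bind another copy of themselves on a neighbouring cell. CD48 differs from the rest in that it is held by a lipid anchor without a cytoplasmic tail, and it is the ligand of CD244 and, in rodents, of CD2. Most other members carry tyrosine switch motifs in their tails, to which small SH2 adaptors such as SAP, the product of Sh2d1a, bind and recruit the kinase FYN. In mouse bone marrow the family is used to sort stem cells: CD150, encoded by Slamf1, marks HSCs, whereas CD48, CD244 and CD229 (encoded by Ly9) appear on multipotent and restricted progenitors. CD150 was part of the gate in both libraries. The other SLAM receptors are not named in the labels' gate, so as labelled it did not leave out CD150-positive progenitors that carry CD48.

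Cd48 and Slamf1, the pair behind the CD150 and CD48 stem cell gate, are neighbours on the plus strand of chromosome 1 with 61.9 kb between them, and Cd84 follows Slamf1. Their promoter-side sequences are shown because these 3 adjacent genes, each at over 10 FPKM in both libraries, had different ratios between the libraries. The bases before the RefSeq start of each gene (GRCm38.p6, which is the mm10 build; plus strand) are written 5′ to 3′. Capitals mark matches, on either strand, to the ETS core GGAAG, the RUNX core TGTGGT, the GATA motif (AGATAA, and also TGATAA) and the E-box CANNTG. The windows are chr1:171681742-171681991 for Cd48, chr1:171766882-171767126 for Slamf1, stopped at an earlier GENCODE start, and chr1:171839447-171839696 for Cd84.
Cd48: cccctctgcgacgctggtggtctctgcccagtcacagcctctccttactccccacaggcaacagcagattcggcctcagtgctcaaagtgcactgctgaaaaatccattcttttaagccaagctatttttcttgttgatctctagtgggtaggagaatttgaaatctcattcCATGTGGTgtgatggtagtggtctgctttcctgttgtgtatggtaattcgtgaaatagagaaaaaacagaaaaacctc
Slamf1: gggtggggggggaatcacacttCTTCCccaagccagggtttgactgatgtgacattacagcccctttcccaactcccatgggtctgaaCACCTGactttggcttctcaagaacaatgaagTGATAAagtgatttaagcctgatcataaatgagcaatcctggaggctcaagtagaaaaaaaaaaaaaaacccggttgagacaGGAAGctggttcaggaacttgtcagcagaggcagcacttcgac
Cd84: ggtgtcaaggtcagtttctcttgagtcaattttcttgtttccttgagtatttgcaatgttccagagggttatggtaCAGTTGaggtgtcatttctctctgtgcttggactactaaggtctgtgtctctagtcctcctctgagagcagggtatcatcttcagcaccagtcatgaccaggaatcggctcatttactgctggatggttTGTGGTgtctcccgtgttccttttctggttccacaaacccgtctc

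Cd48 and Cd84 each held 1 RUNX and 1 E-box match, and in Cd48 these overlapped by 4 bases. Slamf1 held 2 ETS matches, 1 GATA match and 1 E-box match. Among 32851 promoter windows of 250 bases, 64.1% held the ETS core, 14.1% the RUNX core, 16.6% a GATA match and 66.2% an E-box, so the ETS and E-box letters are common. A and T made up 54.0% of the Cd48 window, 52.7% of the Slamf1 window and 53.2% of the Cd84 window, against a median of 47.6% over all windows. A match describes letters and not occupancy, and predicted RefSeq transcripts of Cd48 begin further upstream.

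The family split between the libraries. Cd48, Ly9 and Cd244 were higher in SATB1-positive HSCs by a similar factor, Slamf1 was somewhat lower, Cd84 was close to level, and the 5 other genes were below 5 FPKM in both libraries. FPKM counts fragments relative to transcript length and to all mapped fragments of a library. The log2 ratio is log2((SATB1-positive FPKM + 1)/(SATB1-negative FPKM + 1)), and a gene passed the size criterion when this ratio was 1 or more, or -1 or less, with 5 FPKM or more in the library where it was higher. Of the 10 genes, 8 had 1 FPKM or more in a library, 3 passed the rule as higher and 0 as lower. Over all 11873 genes with 1 FPKM or more in a library, 1.03% passed as higher and 0.539% as lower; the log2 ratio had a median of -0.0059. The median over all 10 SLAM genes was 0.72, with 7 ratios above 0 and 3 below. With so many scarce genes this median depends on the pseudocount: it was 1.44 with 0.1 FPKM and 0.21 with 5 FPKM. The plot of levels shows both values of each gene.

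**Figure D1:**
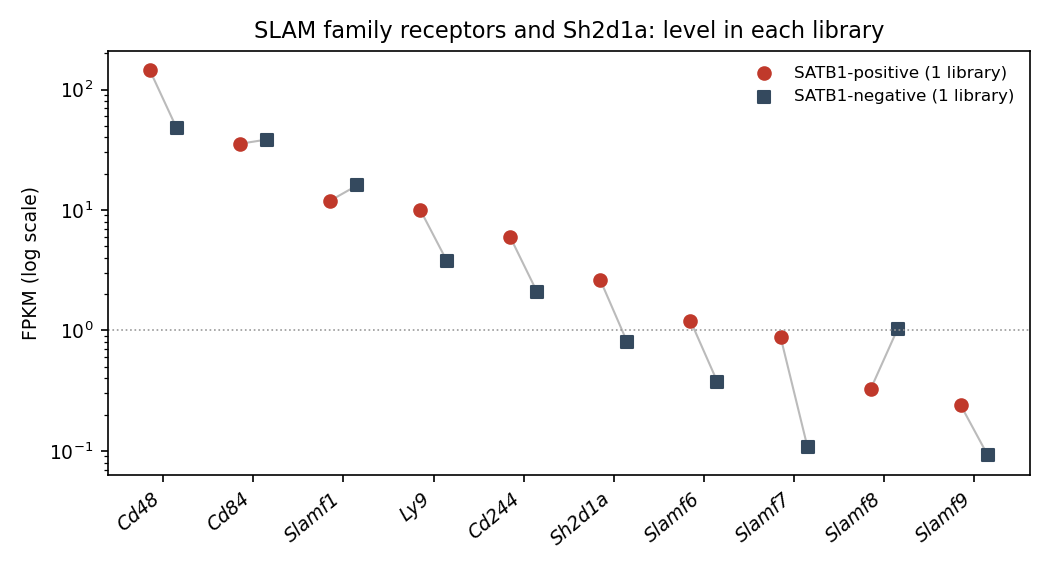
FPKM (log axis) of the 9 SLAM receptor genes and Sh2d1a in the SATB1-positive library (circles, left) and the SATB1-negative library (squares, right), 1 library each, ordered by the SATB1-positive level; the dotted line is 1 FPKM. Cd48 stands at 145 FPKM (SATB1-positive) and 47.6 FPKM (SATB1-negative), and Slamf1, Cd84 and Slamf8 are the 3 genes whose SATB1-positive value is the lower one.

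Cd48, the lipid-anchored ligand of CD244 and CD2, was at 145 FPKM in the SATB1-positive library and 47.6 FPKM in the SATB1-negative library. The ratio was 3.05-fold (2.85 to 3.26, from about 2796 SATB1-positive and 1189 SATB1-negative fragments), and the log2 ratio of 1.59 was the 52nd highest of the 9308 genes with 5 FPKM or more in a library. Bounds in parentheses are 95% intervals for counting error only; the fragment numbers behind them were estimated, and they leave out the spread between animals and sorts. Cd48 ranked 521st in level among 11575 genes at 1 FPKM or more in the SATB1-positive library and 2251st among 11614 in the SATB1-negative library. It was the most abundant SLAM transcript in both. In a bulk library, fewer cells of a type and less RNA per cell cannot be told apart.

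Slamf1, which encodes the CD150 used in the gate, was at 11.9 FPKM in the SATB1-positive library and 15.97 FPKM in the SATB1-negative library. This was a ratio of 0.746 (0.683 to 0.815; about 793 SATB1-positive and 1377 SATB1-negative fragments) and a log2 ratio of -0.39, which is under the size criterion. The ratio of Cd48 to Slamf1 within a library does not depend on how the libraries are scaled. It was 12.2 in the SATB1-positive library and 2.98 in the SATB1-negative library, 4.08 times as high (3.66 to 4.56). Set against Ptprc, the pan-leukocyte CD45 gene, Cd48 was 1.67 times its level in the SATB1-positive library and 0.591 times in the SATB1-negative library.

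Ly9 encodes CD229, a receptor that binds itself, and was at 10.1 FPKM in the SATB1-positive library and 3.74 FPKM in the SATB1-negative library, 2.70-fold higher (2.31 to 3.15). Cd244 encodes the receptor 2B4 that CD48 engages, and was at 5.96 FPKM in the SATB1-positive library and 2.07 FPKM in the SATB1-negative library, 2.88-fold higher (2.48 to 3.35). Their log2 ratios were 1.23 and 1.18, and the fold intervals of Cd48, Cd244 and Ly9 overlap one another. A ligand and its receptor were thus both higher in the same library, with the ligand's transcript far above the receptor's in each. With a pseudocount of 5 FPKM the log2 ratios were 0.79 for Ly9 and 0.63 for Cd244, and of the 3 genes Cd48 alone passed, at 1.51; 0.573% of all genes then passed as higher.

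Cd84, a self-binding receptor of platelets, mast cells and lymphocytes, was at 35.4 FPKM in the SATB1-positive library and 38.4 FPKM in the SATB1-negative library, a ratio of 0.922 (0.856 to 0.992). It was the second most abundant SLAM transcript in both libraries, and its log2 ratio of -0.11 is smaller in size than the median absolute log2 ratio of 0.16 over genes with 5 FPKM or more. Relative to Cd84, Slamf1 was at 0.336 in the SATB1-positive library and 0.416 in the SATB1-negative library.

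The other members were scarce. Slamf6, the Ly108 receptor of T, B and NK cells, was at 1.20 FPKM in the SATB1-positive library and 0.373 FPKM in the SATB1-negative library (3.23-fold, 2.10 to 5.20). Slamf7, the CRACC receptor of NK cells, was at 0.883 FPKM in the SATB1-positive library and 0.107 FPKM in the SATB1-negative library (8.27-fold, 4.66 to 15.7; about 89 SATB1-positive and 14 SATB1-negative fragments). Slamf8, a myeloid receptor with a short tail, was lower, at 0.326 FPKM in the SATB1-positive library and 1.03 FPKM in the SATB1-negative library (ratio 0.315, 0.162 to 0.603; about 13 SATB1-positive and 52 SATB1-negative fragments). Slamf9, also short-tailed, was at 0.239 FPKM in the SATB1-positive library and 0.0917 FPKM in the SATB1-negative library, from about 7 SATB1-positive and 4 SATB1-negative fragments, and its fold interval of 0.577 to 10.6 includes 1. All 4 genes lie below the 5 FPKM minimum in both libraries, so they could not pass the size criterion. An exon of Slamf7 overlaps an annotated gene on the opposite strand, and the strand setting of the counting is not given in the sources used here, so its value is uncertain.

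Sh2d1a, whose product SAP couples SLAM tails to FYN in T and NK cells, was at 2.62 FPKM in the SATB1-positive library and 0.795 FPKM in the SATB1-negative library. It was 3.29-fold higher (1.82 to 6.34, from about 41 SATB1-positive and 16 SATB1-negative fragments), with a log2 ratio of 1.01; the 5 FPKM minimum kept it from passing, and an exon of it also overlaps a gene on the opposite strand. The other adaptors of this family are EAT-2 genes known from NK and myeloid cells. Sh2d1b1 was at 0.609 FPKM in the SATB1-positive library and 0.562 FPKM in the SATB1-negative library, and Sh2d1b2 was listed at 0 in both. In the SATB1-negative library the counting interval of Sh2d1a, 0.454 to 1.29 FPKM, includes the Sh2d1b1 value.

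**Figure D2:**
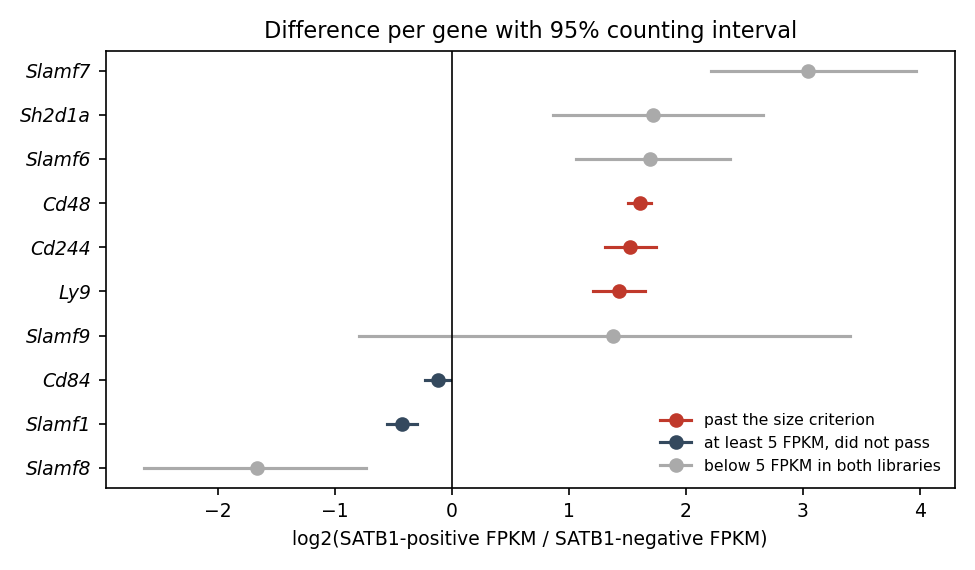
Ratio of SATB1-positive to SATB1-negative FPKM without a pseudocount (log2 scale) for each SLAM gene, with its 95% counting interval; colour separates genes past the size criterion, genes with 5 FPKM or more that did not pass, and genes below 5 FPKM in both libraries. Cd48, Cd244 and Ly9 lie near 3-fold with narrow intervals, and Cd84, Slamf1 and Slamf8 lie below 0. The scarce genes have the widest intervals, that of Slamf9 crossing 0.

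The order of the levels was alike in both libraries at the top and differed at the bottom. Cd48, Cd84, Slamf1, Ly9 and Cd244 came in this order in each, and none of these neighbours had overlapping counting intervals. In the SATB1-positive library Sh2d1a, Slamf6, Slamf7, Slamf8 and Slamf9 followed, with overlapping intervals between Slamf6 and Slamf7 and between Slamf8 and Slamf9. In the SATB1-negative library Slamf8 stood above Sh2d1a, Slamf6, Slamf7 and Slamf9. There the intervals of Slamf8 and Sh2d1a, of Sh2d1a and Slamf6, and of Slamf7 and Slamf9 overlapped. These intervals leave out the transcript lengths behind FPKM, so they do not secure the order between genes. Annotated Cd84 transcripts, for example, run from 1503 to 3434 bases.

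Cd48 made up most of the difference in SLAM receptor transcripts. The FPKM of the 9 receptors summed to 211 in the SATB1-positive library and 109 in the SATB1-negative library, whereas without Cd48 the sums were 66.0 in the SATB1-positive library and 61.8 in the SATB1-negative library. Cd48 held 68.7% of the summed level in the SATB1-positive library and 43.5% in the SATB1-negative library. Cd84 held 16.8% in the SATB1-positive library and 35.1% in the SATB1-negative library, and Slamf1 held 5.64% in the SATB1-positive library and 14.6% in the SATB1-negative library. The transcripts of the receptors thus shifted in proportion toward CD48, while the summed level of the other 8 was 1.07 times as high.

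The 9 receptor genes lie on chromosome 1 between positions 171559193 and 172590568 of mm10, and Sh2d1a lies on the X chromosome at 42502453 to 42529330. The first 7 receptor genes, in map order Cd244, Ly9, Slamf7, Cd48, Slamf1, Cd84 and Slamf6, form a cluster of 394 kb with no other gene of the tables between them. Slamf9 and Slamf8 lie beyond it, Slamf9 522 kb past the end of Slamf6. The 4 genes at one end of the cluster, from Cd244 to Cd48, all had higher values in the SATB1-positive library, with log2 ratios of 1.18 for Cd244, 1.23 for Ly9, 0.77 for Slamf7 and 1.59 for Cd48. Next to them Slamf1 at -0.39 and Cd84 at -0.11 were below 0, and Slamf6 at the far end was at 0.68. GENCODE places Ly9 within the annotated body of Cd244, on the opposite strand and with no overlapping exon.

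The 19 other genes of the tables in this interval all lie past Slamf6, and 9 of them were below 1 FPKM in both libraries. The 10 measured neighbours had log2 ratios from -0.45 for Igsf9 to 0.32 for Igsf8, with a median of 0.08. Of them 0 passed the size criterion in either direction (1.03% higher and 0.539% lower over all measured genes). Tagln2, an actin-binding protein gene and the most abundant neighbour, was at 517 FPKM in the SATB1-positive library and 434 FPKM in the SATB1-negative library. The values past the size criterion in the interval thus belonged to Cd244, Ly9 and Cd48.

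**Figure D3:**
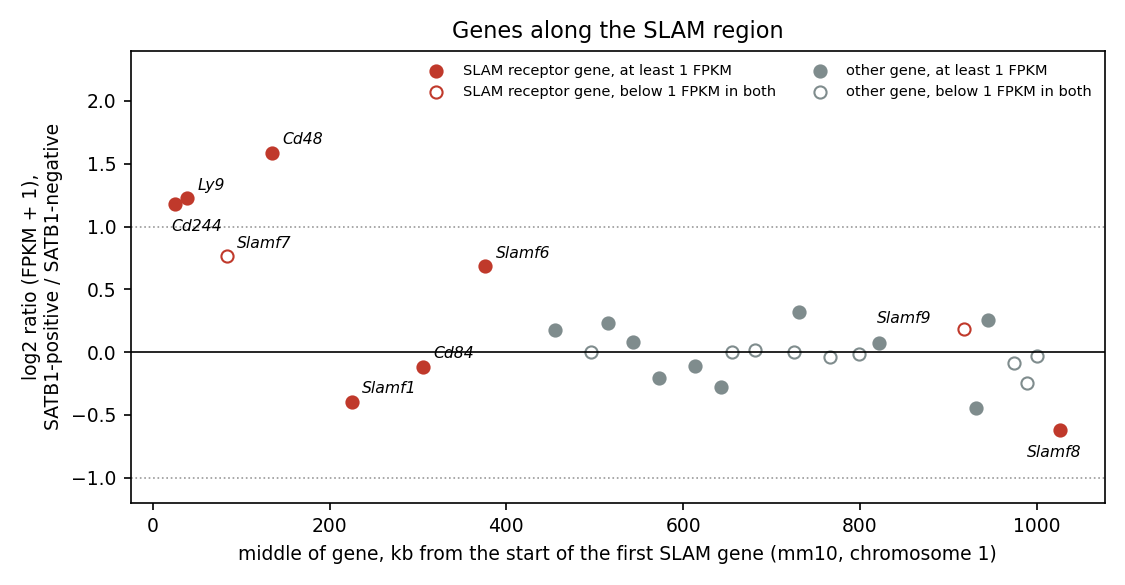
Log2 ratio (FPKM + 1) of each gene of the interval against the distance of its middle from the start of Cd244, in kb; red points are SLAM receptor genes, grey points other genes, open points genes below 1 FPKM in both libraries, and dotted lines mark -1 and 1. Cd244, Ly9 and Cd48 lie above 1 at the left, Slamf1 and Cd84 lie below 0 beside them, and the measured neighbours stay between -0.45 and 0.32.

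Transcripts of the proteins that carry SLAM signals were mostly level between the libraries. Of 25 measured kinases, phosphatases and effectors, 1 passed the size criterion as higher and 0 as lower (1.03% and 0.539% of all measured genes). The log2 ratios centred on a median of 0.02. The gene that passed was Lck, the proximal kinase of T cells, at 23.2 FPKM in the SATB1-positive library and 10.98 FPKM in the SATB1-negative library (2.11-fold, 1.92 to 2.32). Its log2 ratio of 1.01 lies just past the limit, and Lat2, an adaptor of mast and B cells chosen after its values were seen, lies just short of it at 0.99. Other members, chosen after their values were seen, differed less. Fyn, the kinase that SAP recruits, was at 40.33 FPKM in the SATB1-positive library and 39.999 FPKM in the SATB1-negative library. Ptpn6, the SHP-1 phosphatase, was at 108 FPKM in the SATB1-positive library and 118 FPKM in the SATB1-negative library, and Inpp5d, the SHIP-1 phosphatase, at 44.95 FPKM in the SATB1-positive library and 41.5 FPKM in the SATB1-negative library.

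SLAMF1 also joins a phagosome complex with Beclin 1 and the lipid kinase VPS34, and SLAM receptors tune the NADPH oxidase of phagocytes. Of 10 measured genes of this complex and oxidase, 0 passed the size criterion (1.03% higher and 0.539% lower over all measured genes). Their median log2 ratio was 0.03. Rac2, a subunit of the oxidase and the most abundant of them, was at 183 FPKM in the SATB1-positive library and 177 FPKM in the SATB1-negative library. Of the 10 log2 ratios 8 were above 0 and 2 below. The highest was 0.91 for Ncf1, an oxidase subunit gene chosen after its values were seen. Ncf1 was at 27.1 FPKM in the SATB1-positive library and 13.9 FPKM in the SATB1-negative library (1.95-fold, 1.76 to 2.16).

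Cd2, the rodent partner of CD48 and the closest relative of the family, was at 9.71 FPKM in the SATB1-positive library and 2.66 FPKM in the SATB1-negative library. It was 3.65-fold higher (2.84 to 4.69). Cd48 was 14.9 times Cd2 in the SATB1-positive library and 17.9 times in the SATB1-negative library. This was 0.835 times as high, with an interval of 0.649 to 1.075 that includes 1. Among 11 lymphocyte co-receptor genes of the immunoglobulin superfamily, Cd2 included, 8 were measured, and Cd2 was the 1 that passed the size criterion as higher; 0 passed as lower. The median log2 ratio of the 8 was 0.98, and no ratio among them was below 0. Icos and Cd226, co-receptors of T and NK cells chosen after their values were seen, had log2 ratios of 1.85 and 1.69 but reached 4.05 and 3.57 FPKM in the SATB1-positive library, under the minimum, against 0.396 and 0.416 FPKM in the SATB1-negative library. With a pseudocount of 5 FPKM neither Lck nor Cd2 passed, which left 0 in both lists.

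Surface and stem cell genes were set beside the SLAM values. Of 20 measured stem and progenitor surface genes, 2 passed the size criterion as higher and 0 as lower (1.03% and 0.539% of all measured genes). The log2 ratio of the 20 had a median of 0.11. Il7r, the receptor chain of lymphoid precursors, was at 7.64 FPKM in the SATB1-positive library and 0.727 FPKM in the SATB1-negative library. For all 11 measured HSC genes the log2 ratio lay below 0, as for Slamf1, from -1.19 to -0.15 with a median of -0.52, and 0 passed the size criterion. Lmo2, a transcriptional cofactor of stem cells and the most abundant of them, was at 508 FPKM in the SATB1-positive library and 671 FPKM in the SATB1-negative library. Hoxb5, chosen after its values were seen, had the lowest ratio, past -1, but fell under the 5 FPKM minimum. It was at 1.08 FPKM in the SATB1-positive library and 3.74 FPKM in the SATB1-negative library, a ratio of 0.290 (0.208 to 0.397). None of these 11 genes of the labelled cell type was listed at 0 in either library. Satb1 itself was at 8.26 FPKM in the SATB1-positive library and 2.37 FPKM in the SATB1-negative library.

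Several SLAM receptors are also carried by mature blood cells, and marker genes of some of those cells were higher in the SATB1-positive library, as Cd48, Ly9 and Cd244 were. The LSK gate is meant to leave out such mature cells. Of 12 measured T cell genes, 4 passed the size criterion as higher and 0 as lower (1.03% and 0.539% of all measured genes). With a pseudocount of 5 FPKM, 2 T cell genes passed as higher, against 0.573% of all measured genes. The FPKM of the 12 genes summed to 65.5 in the SATB1-positive library and 17.1 in the SATB1-negative library, with no gene listed at 0 in either. Cd3e was at 15.4 FPKM in the SATB1-positive library and 2.76 FPKM in the SATB1-negative library, and Cd3g, its partner in the CD3 complex, at 13.2 FPKM in the SATB1-positive library and 2.95 FPKM in the SATB1-negative library. Of 12 NK cell genes, 9 were measured, 3 passed as higher and 0 as lower, none was listed at 0, and they summed to 351 FPKM in the SATB1-positive library and 160 FPKM in the SATB1-negative library. Nkg7, a granule protein gene chosen after its values were seen, held most of these sums at 313 FPKM in the SATB1-positive library and 152 FPKM in the SATB1-negative library. Without it the sums were 38.0 FPKM in the SATB1-positive library and 7.76 FPKM in the SATB1-negative library, and their ratio was 4.90. Il2rb was 8.07-fold higher (7.02 to 9.30) and Gzmb 7.64-fold (5.38 to 10.8).

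Most basophil and mast cell genes were also higher in the SATB1-positive library. Of 10 genes, 8 were measured, and 6 passed the size criterion as higher and 0 as lower (1.03% and 0.539% of all measured genes). They summed to 594 FPKM in the SATB1-positive library and 170 FPKM in the SATB1-negative library, where Cma1 and Tpsb2 were listed at 0. Mcpt8, a basophil protease, was 4.16-fold higher (3.78 to 4.59) and Fcer1a, the IgE receptor alpha chain, 5.54-fold (4.05 to 7.78). Ratios within a library set Cd48 beside these markers. Cd48 was 9.42 times Cd3e in the SATB1-positive library and 17.3 times in the SATB1-negative library, 0.545 times as high (0.442 to 0.6725). It was 1.41 times Mcpt8 in the SATB1-positive library and 1.92 times in the SATB1-negative library, 0.733 times as high (0.651 to 0.824). The SATB1-positive level exceeded the SATB1-negative one by 97.5 FPKM for Cd48, 12.6 FPKM for Cd3e, 11.9 FPKM for Il2rb and 78.3 FPKM for Mcpt8. The part of these cell types in the SLAM values was not tested, nor was that of CD48-positive progenitors within the gate.

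B cells, monocytes, macrophages, dendritic cells and platelets carry SLAM receptors too. Of 10 B cell genes 1 was measured, Cd79b, at 33.9 FPKM in the SATB1-positive library and 34.3 FPKM in the SATB1-negative library, and the list summed to 36.2 FPKM in the SATB1-positive library and 36.1 FPKM in the SATB1-negative library. Pax5 was listed at 0 in the SATB1-positive library and Igll1 in the SATB1-negative library. Of 12 monocyte and macrophage genes 9 were measured, and of 9 dendritic cell genes 5. In either list 0 passed the size criterion (1.03% higher and 0.539% lower over all measured genes), and none was listed at 0. The monocyte and macrophage list summed to 760 FPKM in the SATB1-positive library and 594 FPKM in the SATB1-negative library. Lyz2, the myeloid lysozyme gene, was at 416 FPKM in the SATB1-positive library and 395 FPKM in the SATB1-negative library. Of the 9 measured log2 ratios of this list 8 were above 0, with a median of 0.42. Ly6c2, a monocyte surface gene picked with its values in view, was at 302 FPKM in the SATB1-positive library and 167 FPKM in the SATB1-negative library. The dendritic cell list summed to 97.5 FPKM in the SATB1-positive library and 71.3 FPKM in the SATB1-negative library. Of its 5 measured log2 ratios 4 were above 0, with a median of 0.31. Bst2 was at 66.8 FPKM in the SATB1-positive library and 53.7 FPKM in the SATB1-negative library. Of its other members, chosen after their values were seen, Irf8 was at 24.1 FPKM in the SATB1-positive library and 12.5 FPKM in the SATB1-negative library, and Ccr9 at 1.94 FPKM in the SATB1-positive library and 0.272 FPKM in the SATB1-negative library. Of 9 megakaryocyte and platelet genes 8 were measured, with 4 log2 ratios above 0 and 4 below. Their median of 0.02 stood beside the -0.11 of Cd84, which platelets carry. The platelet chemokine gene Ppbp was the 1 that passed as higher, at 11.2 FPKM in the SATB1-positive library and 2.27 FPKM in the SATB1-negative library. This list summed to 164 FPKM in the SATB1-positive library and 142 FPKM in the SATB1-negative library, with no gene at 0. Pf4, another platelet chemokine gene, also picked with its values in view, was at 71.2 FPKM in the SATB1-positive library and 39.1 FPKM in the SATB1-negative library. Vwf and Gp9, picked the same way, were lower in the SATB1-positive library. Vwf was at 6.79 FPKM in the SATB1-positive library and 12.3 FPKM in the SATB1-negative library. Gp9 was at 29.2 FPKM in the SATB1-positive library and 43.2 FPKM in the SATB1-negative library.

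**Figure D4:**
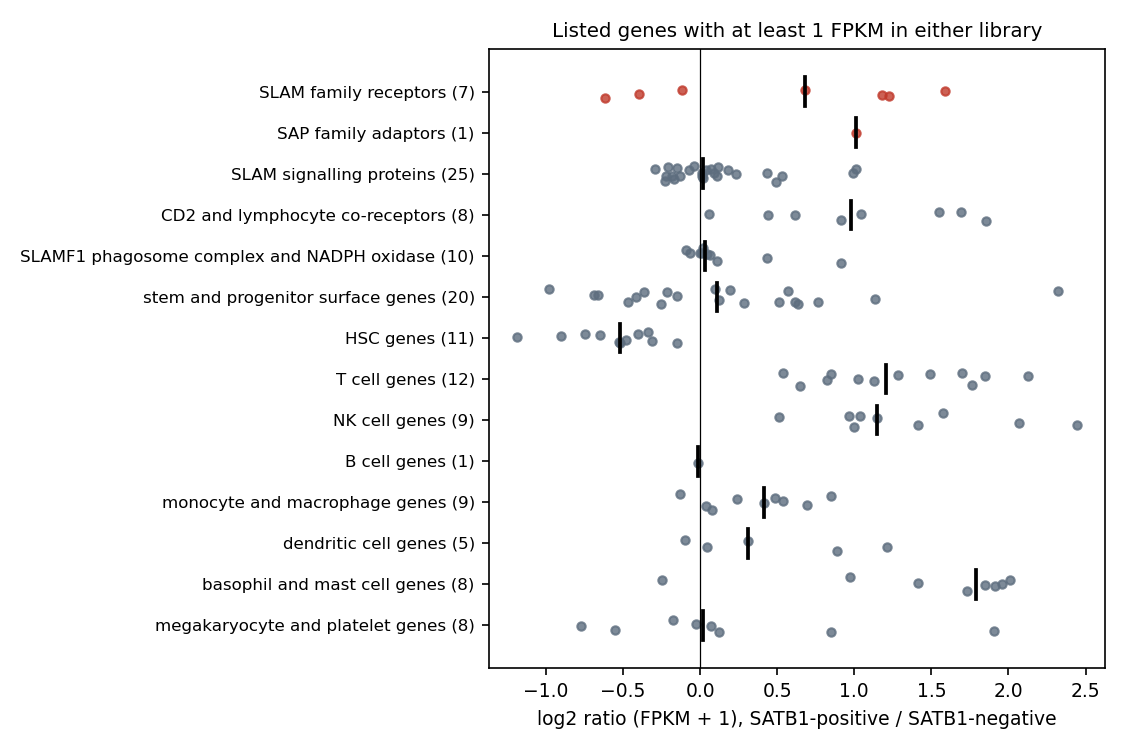
Log2 ratio (FPKM + 1) of every listed gene with 1 FPKM or more in a library; red points are SLAM receptors and SAP adaptors, grey points the related lists, black bars the medians, and the number of genes stands beside each list name. The SLAM receptors spread from -0.62 to 1.59, the signalling proteins centre on 0.02, and the T cell, NK cell and basophil and mast cell genes have medians of 1.21, 1.15 and 1.79.

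The genes most like Cd48 in ratio, out of 1751 with a mean FPKM within 2-fold of its own, were Ctsg, Ms4a3, Snrnp70, Prmt1 and Fbl. Likeness here is the distance between log2 ratios over 2 libraries, so it carries little information on shared patterns. Ctsg, the neutrophil granule cathepsin G, had a log2 ratio of 1.76 and was at 111 FPKM in the SATB1-positive library and 31.9 FPKM in the SATB1-negative library. Ms4a3, a gene of granulocyte and monocyte progenitors, had a log2 ratio of 1.39 at 139 FPKM in the SATB1-positive library and 52.5 FPKM in the SATB1-negative library. The other three are broadly expressed genes of RNA processing and arginine methylation, with log2 ratios of 1.37 for Snrnp70, 1.36 for Prmt1 and 1.35 for Fbl.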

How the data were processed

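RNA-seq values were available for 2 libraries. Per the labels' protocols, RNA came from a miRNeasy extraction and went into a stranded Clontech SMARTer preparation. The authors deposited 1 FPKM value for each gene symbol, as their headers name it. Cufflinks 2.2.1, TopHat2 2.0.13, SAMtools 0.1.19, Bowtie2 2.2.3 and build mm10 stand in the submitters' processing notes; the sources used here do not give roles, annotation or strand setting. Cufflinks divides fragments among overlapping transcripts by a model. In 25 of 23235 rows the symbol had become a date and the row was left out (0.172% of the summed FPKM in the SATB1-positive and 0.161% in the SATB1-negative library).

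The files give no counts. Among single-exon genes, low values step by the worth of 1 fragment. A search over depth and length offset gave 26680000 fragments for the SATB1-positive and 34580000 for the SATB1-negative library, with an offset of 200 bases; 61.4% of 189 such values (SATB1-positive) and 58.1% of 172 (SATB1-negative) were then whole within 0.05 fragments. On data simulated from whole fragments at these depths the search returned the same depths with 100% of values whole, so the deposited values fall short of whole fragments and the depths are estimates. Fragments per gene used the shortest RefSeq-linked transcript of GENCODE M21. Fold intervals are exact (Clopper-Pearson), level intervals exact Poisson, and intervals of a ratio of ratios a log-normal approximation; all cover counting error only, and PCR copies make them too narrow. Symbols were matched through RefSeq synonyms, as Cd244 to Cd244a; 97.8% of 23210 matched. Promoter sequences are RefSeq's (GRCm38.p6), with entries for 8 of the 10 genes.

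With 1 library per group no test was run. The SLAM genes and the 14 gene lists were chosen with earlier results of these data known. The text names all SLAM genes and, per list, the 2 highest and 2 lowest ratios past the size criterion, or the most abundant measured gene where none passed; other genes are marked or were needed as partners. A gene that this would name is not reported here. Alternatives tried were a pseudocount of 0.1 or 5 FPKM, TPM, median ratio and upper quartile scaling, other minimums, log2 thresholds of 0.58 and 2, the longest transcript, and depths changed by 10%. Python 3.11.15, pandas 2.3.3 and scipy 1.17.1 were used.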

Additional observations from a re-analysis of the deposited data

How the results depend on the processing

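The count of 3 SLAM genes higher in SATB1-positive HSCs became 1 with a pseudocount of 5 FPKM (Cd48) and 0 with a log2 threshold of 2. It was 4, with Sh2d1a added, under TPM and with a minimum of 1 FPKM or none, and 2 with a minimum of 10 FPKM; the median ratio and upper quartile scalings and a threshold of 0.58 left it at 3. Over all genes, 122 passed as higher in the main setting, 68 with a pseudocount of 5 FPKM and 24 with a threshold of 2. This all-gene count was 174 under TPM, 164 with a minimum of 1 FPKM or none, and 87 with a minimum of 10 FPKM. With a threshold of 0.58 it was 360. No setting put a SLAM gene past the criterion as lower, and no SLAM gene reversed its sign. The ratio of Cd48 to Slamf1 was 3.95 times as high with a pseudocount of 1 FPKM, against 4.08 without. TPM values are about 2 times the FPKM here, so the minimum and pseudocount weigh less; the scalings themselves shifted log2 ratios by -0.0054 to 0.0030. In the related lists, 18 genes were higher and 0 lower, and 1 was lower with a pseudocount of 0.1 FPKM (a surface gene) and under TPM (an HSC gene). Under TPM 7 T cell, 5 NK cell and 3 co-receptor genes passed. Over all genes 174 then passed as higher and 100 as lower, against 122 and 64 in the main setting. With a pseudocount of 0.1 FPKM the log2 ratio was 1.46 for Slamf6 and 2.25 for Slamf7. Of 30 recomputed fold intervals, the 3 of Slamf9 included 1, as before, and the other 27 stayed on their side of 1. The NK cell sum without Nkg7 and the other pseudocounts for the SLAM median were added after seeing the data. The median of the SAP adaptors had no value at 5 FPKM. Leaving out a replicate was not possible. No paired analysis was possible because each group has 1 library. Depth limits Slamf9, Slamf8 and Sh2d1a most.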
